A study of Mus musculus with 6 samples.

Results

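The 42 genes described here encode the coat and sorting machinery of the trans-Golgi network and endosomes. They were chosen by name: the subunits of the adaptor complexes AP-1, AP-3, AP-4 and AP-5, the 3 GGA adaptors, the 3 clathrin chains, the retromer core, 3 subunits of the GARP tether, 4 sorting receptors, and furin and Tgoln1, which reside in the trans-Golgi network. All 42 were found, once each, among the 55711 entries of the deposited table. The 6 libraries were made from mouse testis on the C57BL6 background, 3 labelled heterozygote (the controls) and 3 labelled knockout for Tmc7. The controls therefore carry a Tmc7 mutant allele too. The labels describe neither the allele nor the age, and nothing in them tells if each library is its own animal, so that the p-values reflect the spread between these samples alone, possibly a technical one. Tmc7 itself had 39.1, 37.7 and 37.2 FPKM in the controls, against 43.8, 41.9 and 35.1 FPKM in knockout-labelled testis (limma adjusted p = 0.885), so its transcript total does not check the labels.

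Adaptor complexes pick cargo proteins out of a membrane by short motifs in their tails and, for AP-1 and the GGAs, work together with clathrin, whose heavy and light chains form the cage of a coated vesicle. Mannose 6-phosphate receptors and sortilin carry enzymes from the trans-Golgi network towards endosomes, and retromer and the GARP tether serve their return. In spermatids, vesicles from the Golgi build the acrosome, and the series title places the protein of Tmc7 in the handling of vesicles from the trans-Golgi network.

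Upstream sequences are shown for 4 genes on which the results below turn: Vps26a, the most abundant of the 42 transcripts, its paralogue Vps26b, which was far less abundant, Ap5b1, which had the smallest p, and Ap1s2, which was lower in each knockout-labelled library than in any control. Each run is the 250 bases before the transcription start, from RefSeq on GRCm38.p6, 5′ to 3′ on the strand of the gene. Capitals mark TGACG, the core of a cyclic AMP response element, and CACGTG, an E-box, both searched on either strand. The windows lie at chr10:62486806-62487055 on the minus strand (Vps26a, the farther upstream of its 2 RefSeq starts), chr9:27030095-27030344 on the minus strand (Vps26b), chr19:5567774-5568023 on the plus strand (Ap5b1) and chrX:163908767-163909016 on the plus strand (Ap1s2).
Vps26a: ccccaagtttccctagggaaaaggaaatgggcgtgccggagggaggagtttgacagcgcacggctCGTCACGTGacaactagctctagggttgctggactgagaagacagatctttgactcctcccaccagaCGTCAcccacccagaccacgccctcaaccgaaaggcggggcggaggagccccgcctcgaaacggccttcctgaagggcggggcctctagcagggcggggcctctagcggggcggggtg
Vps26b: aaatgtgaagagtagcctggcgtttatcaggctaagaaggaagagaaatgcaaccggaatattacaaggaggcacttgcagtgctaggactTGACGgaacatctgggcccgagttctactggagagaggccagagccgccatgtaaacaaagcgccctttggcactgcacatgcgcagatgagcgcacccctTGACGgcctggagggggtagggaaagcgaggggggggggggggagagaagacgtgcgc
Ap5b1: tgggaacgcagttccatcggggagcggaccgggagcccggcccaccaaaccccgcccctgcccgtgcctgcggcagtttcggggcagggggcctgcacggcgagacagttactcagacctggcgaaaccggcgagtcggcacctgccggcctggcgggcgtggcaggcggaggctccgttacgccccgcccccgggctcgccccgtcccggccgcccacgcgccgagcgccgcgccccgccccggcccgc
Ap1s2: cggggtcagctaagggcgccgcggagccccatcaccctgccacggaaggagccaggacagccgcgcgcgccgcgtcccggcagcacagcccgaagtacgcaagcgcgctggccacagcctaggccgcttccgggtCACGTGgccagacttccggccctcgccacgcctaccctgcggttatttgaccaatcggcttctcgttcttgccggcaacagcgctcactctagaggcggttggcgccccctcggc

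The Vps26a window held 2 copies of TGACG and 1 of CACGTG, and 1 copy of TGACG overlaps the E-box. The Vps26b window held TGACG in 2 places and no CACGTG, the Ap1s2 window CACGTG once and no TGACG, and the Ap5b1 window neither. RefSeq gave 41 such windows for 35 of the 42 genes. Ap1m1, Ap3m2, Ap3s1, M6pr, Sort1, Vps35 and Vps51 had no entry. TGACG occurred in 41.5% of the 41 windows and in 17.8% of all 32851 windows of the same length, and CACGTG in 14.6% and 6.02%. GGGCGG, the Sp1 or GC box, which occurred 4 times in the Ap5b1 window, stood in 51.2% and 32.7%, CCAAT in 21.95% and 33.8%, and TATAAA in 2.44% and 12.4%. The windows of these genes were also richer in G and C, with a median of 60.8% against 52.4% over all windows, and the part of base composition in these shares was not tested. A match describes letters and is not a binding site.

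The libraries held 17059486 to 19343479 reads, worked back from the FPKM, which divides fragments by gene length in kilobases and by a library size. The library size implied by the FPKM was not the read total. It was 16450310 against 17059486 reads in control library 1, and 19497384 against 18140921 reads in knockout-labelled library 3. All FPKM values below carry this scaling. Germ cell and somatic markers of testis were all present, and of the markers listed only Lcn5, of the epididymis, was at 0 in all 6 libraries. The elongated spermatid list (Tnp1, Prm1 and 8 others, 0 of 10 with a higher mean in knockout-labelled testis) summed to 16957, 13657 and 9774 FPKM in heterozygote testis and 14272, 8184 and 7386 FPKM in knockout-labelled testis. The Sertoli cell list (Clu, Sox9 and 8 others, 10 of 10 with a higher mean) summed to 503, 486 and 516 FPKM and 488, 630.1 and 636 FPKM. By both lists knockout-labelled library 1 lay within the range of the controls, while libraries 2 and 3 had fewer spermatid and more Sertoli transcripts. The peritubular myoid list (5 of 5 tested with a higher mean) moved in the same libraries, with 47.9, 44.2 and 50.9 FPKM against 47.5, 77.2 and 65.1 FPKM, as did the macrophage list (8 of 8 with a higher mean), with 29.01, 30.7 and 32.8 FPKM against 30.3, 40.2 and 46.2 FPKM. Single markers could separate the groups, such as Sycp3 of spermatocytes, which was lower in each knockout-labelled library, and Fshr of Sertoli cells and C1qb of macrophages, which were higher. The other spermatocyte markers listed overlapped, and 2 of the 8 had a log2 difference above 0. Piwil1, the highest of that list, had means of 120 FPKM in controls and 130 FPKM in knockout-labelled testis. In several results below, knockout-labelled libraries 2 and 3 likewise differ from library 1. The list sums given here are to be read beside each of them, and their part in those results was not tested. In whole testis, fewer cells of a type and less RNA per cell cannot be told apart.

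**Figure D1:**
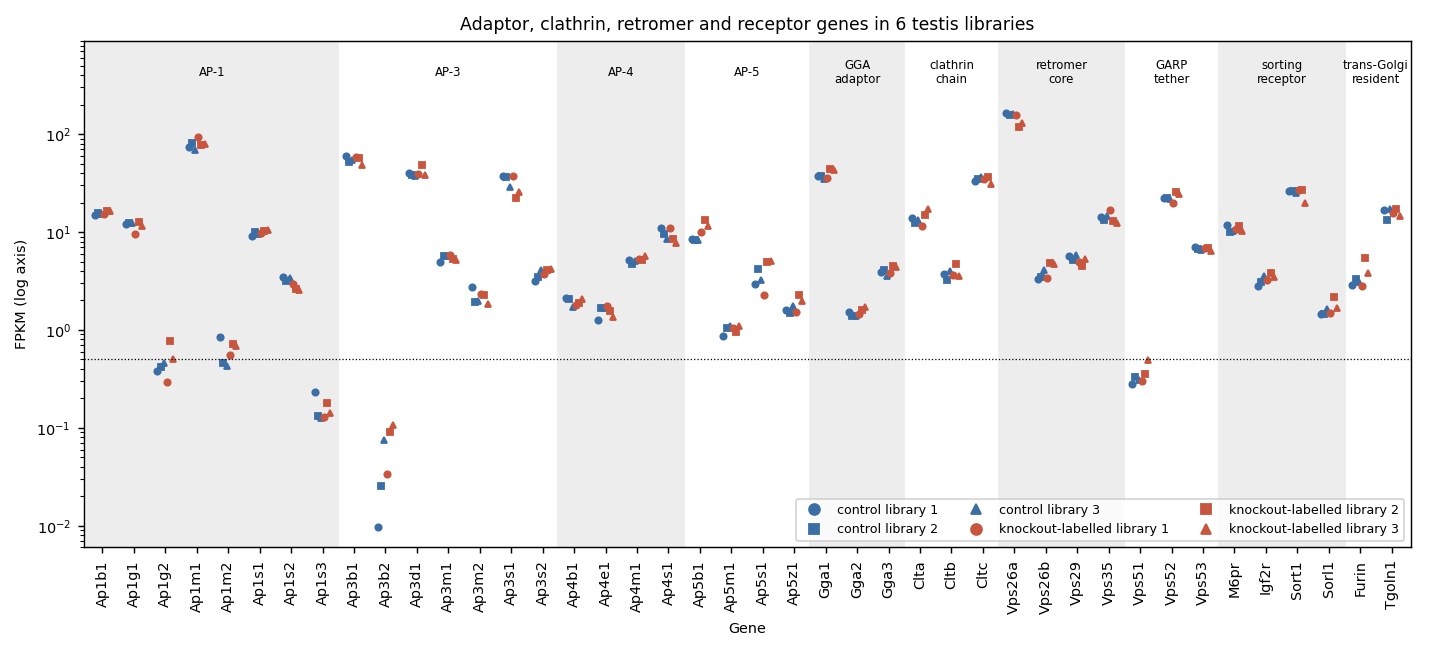
FPKM of the 42 genes (log axis) in each of 6 testis libraries, grouped by complex, with blue for controls and red for knockout-labelled libraries. The dotted line at 0.5 FPKM is the mean level a gene needed to be tested. Vps26a is highest at 119 to 164 FPKM, and 4 genes, Ap1g2, Vps51, Ap1s3 and Ap3b2, lie below the line on average.

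Wherever 3 values are set against 3 others below, heterozygote libraries 1, 2 and 3 come first and knockout-labelled libraries 1, 2 and 3 second. The 42 genes spanned more than 3 orders of magnitude in abundance. By FPKM, Vps26a came first with a mean of 147 over the 6 libraries, followed by Ap1m1 at 79.3, Ap3b1 at 54.9, Ap3d1 at 40.3, Gga1 at 38.9, Cltc at 34.5 and Ap3s1 at 31.4. Vps26a stood at percentile 98.4 of the 19168 genes tested and Ap1m1 at percentile 96.2. At the other end were Ap1g2 at 0.471, Vps51 at 0.345, Ap1s3 at 0.157 and Ap3b2 at 0.0568 FPKM. FPKM depends on the length given to a gene, which here equalled the joined exons of all its transcripts for most of these genes. Scaled instead by the longest coding transcript in GENCODE M21, Vps26a remained first and Ap1m1 second, and Ap3d1 and Ap3b1 changed places. Vps35 rose from rank 12 to rank 8, and Vps29, whose joined exons are 2.26 times as long as its longest coding transcript, from 21 to 18.

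None of the 42 genes passed the comparison of the groups. It used limma on log2(FPKM + 1), with Benjamini-Hochberg adjusted p under 0.05 over all genes whose mean reached 0.5 FPKM. Of the 42 genes 38 reached it and were tested, with 0 higher and 0 lower (adjusted p from 0.868 to 0.999), as were 0 of all 19168 tested genes, a share of 0%. At an unadjusted p under 0.05, 1 of the 38 was higher (Ap5b1) and 0 were lower, where all genes gave 1.48% higher and 2.38% lower. The groups did not overlap for 2 genes with higher values (Ap5b1 and Ap4m1) and for 1 with lower values (Ap1s2), against 4.15% higher and 4.41% lower among all tested genes. The median log2 difference of the 38 genes was 0.06, and that of all tested genes was -0.01. It was 0.04 without control library 2 and 0.01 without knockout-labelled library 2. By complex it ran from -0.07 for the retromer core to 0.15 for AP-5, with 0.06 for AP-1, -0.01 for AP-3, -0.004 for AP-4, 0.11 for the GGAs, 0.10 for the clathrin chains and 0.07 for the sorting receptors. In knockout-labelled library 2, a total of 28 of the 38 genes lay above their mean over the 6 libraries, against 15 to 21 in each of the other 5. The median log2 deviation in that library was 0.08 for the 38 genes and -0.007 for all tested genes. The share of all genes above their mean was not worked out. The 95% intervals of all 38 lay between -1 and 1 on that scale, and those of 32 lay between -0.5 and 0.5.

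**Figure D2:**
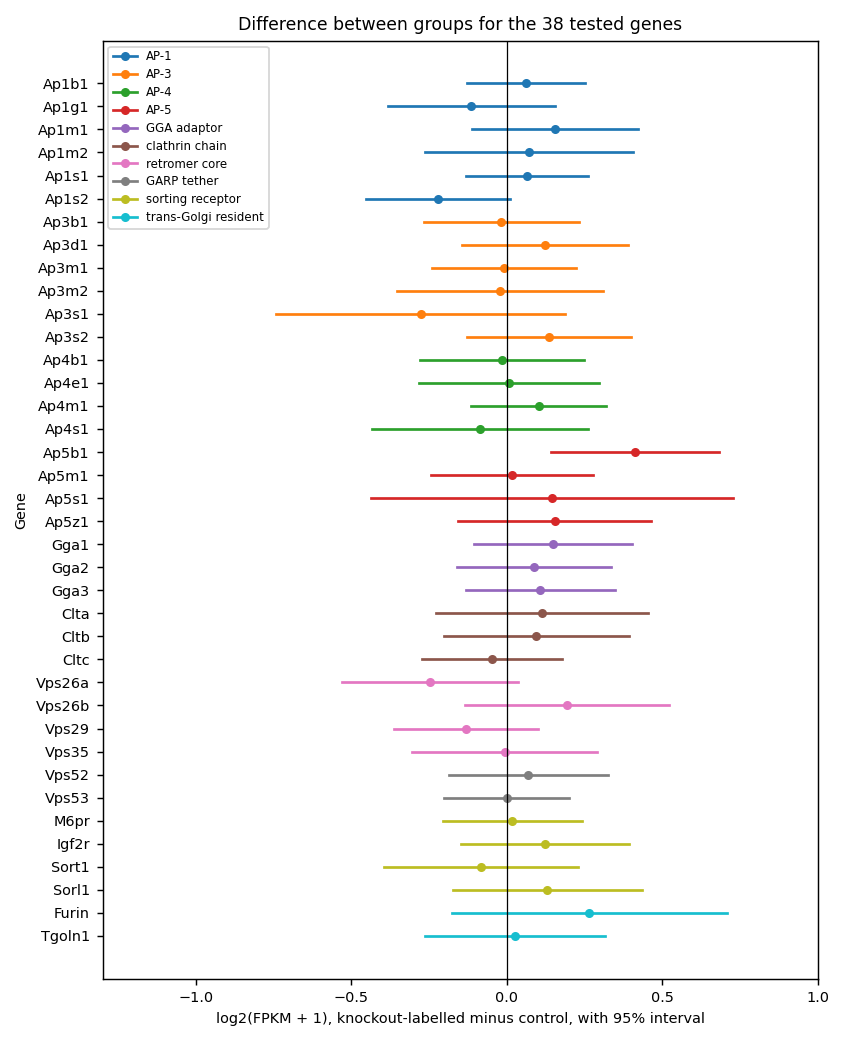
Differences in log2(FPKM + 1), knockout-labelled minus control, of the 38 tested genes, as points with limma's 95% intervals, coloured by complex. The interval of Ap5b1, 0.14 to 0.68, is the only one that leaves out 0, and no gene passed after adjustment over all genes.

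Within AP-1, which sorts between the trans-Golgi network and endosomes, the transcript of the medium subunit μ1A exceeded those of its partners. Ap1m1 had 73.9, 81.6 and 69.4 FPKM in heterozygote testis, against 94.04, 77.5 and 79.6 FPKM in knockout-labelled testis (log2 difference 0.15, SE 0.11, limma adjusted p = 0.868). Its highest value was in knockout-labelled library 1, and the groups overlapped. Ap1b1, the large β1 subunit, had 15.03, 15.7 and 15.4 FPKM against 15.2, 16.6 and 16.5 FPKM, and varied little. Ap1g1, the large γ1 subunit, had 12.1, 12.2 and 12.3 FPKM against 9.54, 12.7 and 11.6 FPKM, with knockout-labelled library 1 farthest from the controls. An antisense gene covers 18.7% of the Ap1g1 exons, and since the labels and the table state no strand handling, its reads may be counted in. Ap1g2, for γ2, had 0.379, 0.414 and 0.462 FPKM against 0.292, 0.774 and 0.504 FPKM and Ap1m2, the medium subunit of polarised epithelia, had 0.852, 0.464 and 0.431 FPKM against 0.556, 0.716 and 0.686 FPKM. The γ2 and epithelial μ1B transcripts were thus each under 1 FPKM in all 6 libraries.

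The small σ subunits of AP-1 differed in how they compared between the groups. Ap1s1, for σ1A, had 9.21, 10.02 and 9.59 FPKM in heterozygote testis, against 9.72, 10.2 and 10.4 FPKM in knockout-labelled testis. Ap1s2, the X-linked gene for σ1B (chromosome X from 163909017 to 163933666 in GRCm38), had 3.44, 3.19 and 3.36 FPKM against 2.95, 2.62 and 2.57 FPKM. All 3 of the latter values of Ap1s2 lay below all 3 controls, with library 1 nearest to them. The part of cell composition in this difference was not tested. The means were 3.33 ± 0.130 and 2.72 ± 0.205 FPKM (SD, n = 3 each), and the log2 difference was -0.22 with a 95% interval from -0.45 to 0.01, which did not pass (limma adjusted p = 0.868, resting on 226 to 321 reads a library). The ratio of Ap1s1 to Ap1s2 was 2.68, 3.15 and 2.85 in heterozygotes and 3.29, 3.88 and 4.04 in knockout-labelled testis, the 1 pair of 10 pairs of related genes whose groups did not overlap. The share without overlap over pairs of other genes was not worked out, so this count is no result about the pair. Ap1s3 gave 7 to 11 reads a library and was not tested.

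AP-3, which sends cargo from endosomes to lysosomes and lysosome-related organelles, had far more transcript of the ubiquitous than of the neuronal β subunit. Ap3b1, for β3A, had 59.2, 52.4 and 53.9 FPKM in heterozygote testis, against 58.7, 56.7 and 48.4 FPKM in knockout-labelled testis, and Ap3b2, for the neuronal β3B, gave 1, 3 and 9 reads in heterozygotes and 4, 10 and 13 reads in knockout-labelled testis. Ap3d1, the δ subunit shared by both forms, had 39.98, 38.4 and 36.9 FPKM against 39.4, 48.9 and 38.2 FPKM, with its highest value in knockout-labelled library 2. Ap3m1 and Ap3m2, the ubiquitous and neuronal medium subunits, were closer to each other than the β subunits. Ap3m1 had 4.97, 5.73 and 5.72 FPKM against 5.79, 5.35 and 5.16 FPKM, and Ap3m2 had 2.74, 1.91 and 1.99 FPKM against 2.35, 2.28 and 1.82 FPKM. The value of Ap3m1 is uncertain, because the gene Vcl on the opposite strand covers 29.8% of its exons.

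Ap3s1, for σ3A, had 37.2, 36.4 and 29.2 FPKM in heterozygote testis, against 37.7, 22.3 and 25.9 FPKM in knockout-labelled testis. Knockout-labelled library 1 had the highest value of the 6 and libraries 2 and 3 the lowest, as these 2 also were in the elongated spermatid sum. Its log2 difference was -0.28 (95% interval -0.74 to 0.19, limma adjusted p = 0.868). The gene shares 21.5% of the 31-base words of its transcripts with other genes, mostly with the pseudogene Ap3s1-ps1, so its level is uncertain. Ap3s2, for σ3B, had 3.14, 3.49 and 4.08 FPKM against 3.77, 4.06 and 4.19 FPKM, and the ratio of Ap3s1 to Ap3s2 was 11.9, 10.4 and 7.15 in heterozygotes and 10.01, 5.48 and 6.18 in knockout-labelled testis.

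AP-4 and AP-5 are adaptors that work without clathrin, AP-4 at the trans-Golgi network and AP-5 at late endosomes. The small subunit gene Ap4s1 was the highest of the AP-4 genes at 10.9, 9.45 and 8.56 FPKM in heterozygote testis, against 11.1, 8.42 and 7.76 FPKM in knockout-labelled testis, with its highest value in knockout-labelled library 1. Ap4m1, its medium subunit, had 5.17, 4.69 and 5.08 FPKM against 5.29, 5.23 and 5.75 FPKM. Its groups did not overlap, but the nearest values, 5.17 and 5.23 FPKM, almost met, and the log2 difference of 0.10 did not pass (limma adjusted p = 0.868). Taf6 and Mcm7 on the opposite strand cover 28.1% of the Ap4m1 exons. Ap4b1 and Ap4e1, for the β4 and ε subunits, had means of 1.94 and 1.54 FPKM and log2 differences of -0.02 and 0.01. The Ap4b1 value is uncertain, since the gene Gm43064 on the same strand covers 82.4% of its exons.

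All 4 AP-5 genes had higher means in knockout-labelled testis, and Ap5b1 had the smallest p of the 38. Of the 38 genes 24 had a log2 difference above 0, as had 9315 of all 19168 tested genes. The difference of Ap5m1 was only 0.02. Ap5b1, for the large β5 subunit (chromosome 19 from 5568074 to 5571261), had 8.51, 8.38 and 8.38 FPKM in heterozygote testis, against 9.94, 13.3 and 11.6 FPKM in knockout-labelled testis. The 3 controls lay close together, and each knockout-labelled library lay above all of them, library 1 least. The means were 8.43 ± 0.0753 and 11.6 ± 1.70 FPKM (SD, n = 3 each), and the log2 difference was 0.41 with an SE of 0.11. By limma its unadjusted p was 0.00855 and its adjusted p 0.868, so that it did not pass. The counts behind it were 433 to 715 reads a library, and its transcripts shared no 31-base word with those of other genes. Left out in turn, none of the 6 libraries took the difference below 0.31 or the limma unadjusted p above 0.05. Ap5b1 was singled out by its small p in these same libraries, so this is no separate support for a difference.

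The other AP-5 genes varied more between libraries of a group. Ap5s1, for σ5, had 2.97, 4.16 and 3.23 FPKM in heterozygote testis, against 2.29, 4.90 and 5.04 FPKM in knockout-labelled testis, with the lowest value of all 6 in knockout-labelled library 1 and the highest in libraries 2 and 3. Ap5z1, for ζ, had 1.60, 1.49 and 1.74 FPKM against 1.51, 2.27 and 1.98 FPKM and was likewise lowest in library 1 of the group. Ap5m1, for μ5, had means of 1.0002 ± 0.111 and 1.02 ± 0.0749 FPKM (SD, n = 3 each). Without knockout-labelled library 3 the log2 differences of Ap5s1 and Ap5m1 were -0.006 and -0.007, and without control library 1 that of Ap5m1 was -0.03. Spg11 and Zfyve26, whose products spatacsin and spastizin bind AP-5, had higher means too. Spg11 had 4.15, 4.85 and 5.18 FPKM against 4.60, 5.77 and 5.36 FPKM, and its groups overlapped (limma adjusted p = 0.868).

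**Figure D3:**
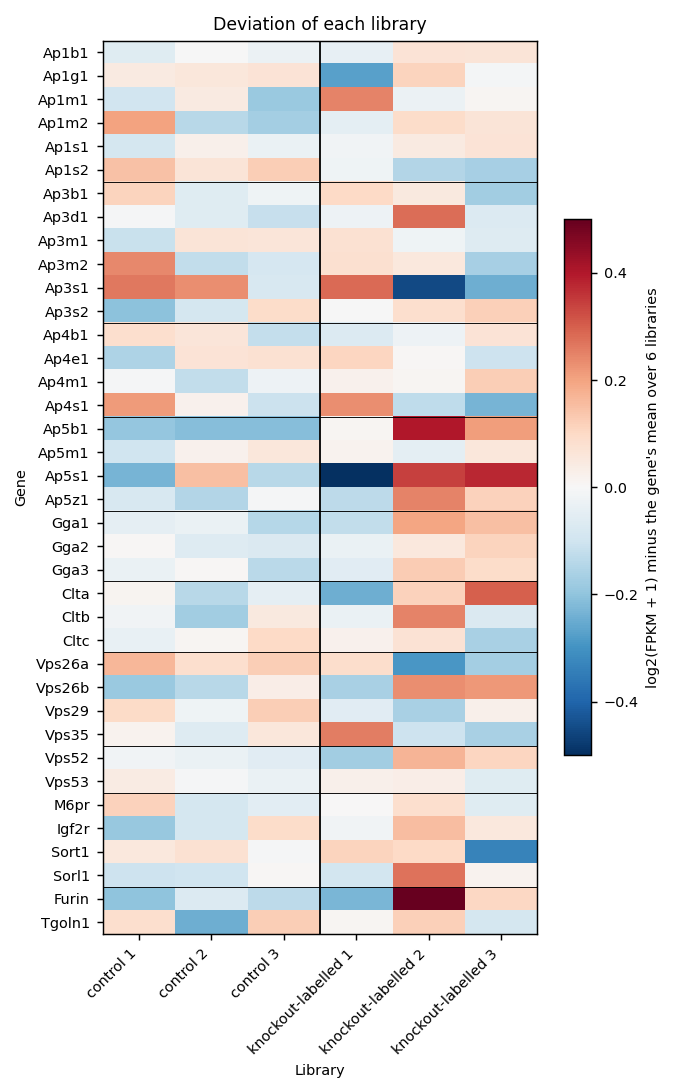
Deviation of each library from the mean of a gene over the 6 libraries, in log2(FPKM + 1), for the 38 tested genes, with red for above and blue for below the mean and lines between complexes. Knockout-labelled libraries 2 and 3 are above the mean for the AP-5 genes Ap5b1, Ap5s1 and Ap5z1 and for the 3 GGA genes and below it for Vps26a and Ap3s1, while knockout-labelled library 1 lies near or below the controls for the former, except Ap5b1, and above the mean for the latter.

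The 3 GGA genes encode monomeric adaptors that bind mannose 6-phosphate receptors and ARF at the trans-Golgi network. Gga1 was by far the highest, at 37.5, 37.8 and 34.97 FPKM in heterozygote testis, against 35.5, 44.5 and 43.03 FPKM in knockout-labelled testis, with libraries 2 and 3 above all controls and library 1 among them. Gga3 had 3.92, 4.05 and 3.58 FPKM against 3.84, 4.49 and 4.36 FPKM, with the same arrangement, and Gga2 had means of 1.44 ± 0.0721 and 1.60 ± 0.128 FPKM (SD, n = 3 each). The 3 log2 differences were 0.15, 0.09 and 0.11 for Gga1, Gga2 and Gga3, and none passed (limma adjusted p from 0.868 to 0.878). The ratio of Gga1 to Gga3 was 9.55, 9.33 and 9.76 in heterozygotes and 9.24, 9.91 and 9.87 in knockout-labelled testis, a narrow range over the 6 libraries.

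None of the 3 clathrin chains passed, and their groups overlapped. Cltc, the heavy chain, had 33.5, 34.6 and 36.9 FPKM in heterozygote testis, against 34.9, 36.2 and 30.6 FPKM in knockout-labelled testis (log2 difference -0.05, 95% interval -0.27 to 0.18). Clta, light chain A, had 13.8, 12.4 and 13.3 FPKM against 11.4, 14.9 and 17.1 FPKM, with both the lowest and the highest value among the knockout-labelled libraries. Cltb, light chain B, had 3.73, 3.25 and 3.97 FPKM against 3.68, 4.70 and 3.56 FPKM. By FPKM, Clta exceeded Cltb in every library, by 3.71, 3.81 and 3.35 times in heterozygotes and 3.10, 3.17 and 4.81 times in knockout-labelled testis. Scaled by the longest coding transcript, their means were 14.6 for Clta and 8.50 for Cltb, a smaller excess. The size of the ratio thus depends on the length given to each gene.

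The retromer core joined the most abundant of the 42 transcripts with partners far below it, and none of its 4 genes passed. VPS26, VPS29 and VPS35 form the cargo-binding trimer, with VPS26A and VPS26B as alternative subunits. Vps26a (chromosome 10 from 62455235 to 62486805) had 164, 155 and 159 FPKM in heterozygote testis, against 156, 119 and 129.8 FPKM in knockout-labelled testis. Knockout-labelled library 1 lay within the control range, and libraries 2 and 3 lay below every control. The means of Vps26a were 159 ± 4.42 and 135 ± 18.7 FPKM (SD, n = 3 each), and the log2 difference was -0.25 with a 95% interval from -0.53 to 0.04 (limma adjusted p = 0.868). Its 5917 to 8745 reads a library lie behind these values, and its transcripts shared no 31-base word with other genes.

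Vps26b went the other way between the same libraries. It had 3.35, 3.49 and 4.05 FPKM in heterozygote testis, against 3.42, 4.81 and 4.75 FPKM in knockout-labelled testis, highest in libraries 2 and 3 (log2 difference 0.19, limma adjusted p = 0.868). Vps26a therefore exceeded Vps26b by 48.97, 44.4 and 39.3 times in heterozygotes and by 45.5, 24.8 and 27.3 times in knockout-labelled testis, and knockout-labelled library 1 again fell among the controls. Vps35, the scaffold of the trimer, had 14.1, 13.3 and 14.5 FPKM against 16.8, 12.9 and 12.3 FPKM, with its highest value in knockout-labelled library 1, and Vps29, which holds the far end of VPS35, had 5.64, 5.13 and 5.76 FPKM against 4.97, 4.55 and 5.32 FPKM. The ratio of Vps26a to Vps35, a pair chosen after its values were seen, was 11.6, 11.7 and 10.96 in heterozygotes and 9.26, 9.27 and 10.5 in knockout-labelled testis. These groups did not overlap, although by Vps26a alone they did, and no test was made of the ratio. Of 10 such subunit pairs 2 were without overlap, this one and Ap5b1 to Ap5z1, and 8 overlapped. The share without overlap over pairs of other genes was not worked out, so this count is no result about these pairs. Scaled by the longest coding transcript, the means were 155 for Vps26a and 35.8 for Vps35, a smaller excess than by FPKM.

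**Figure D4:**
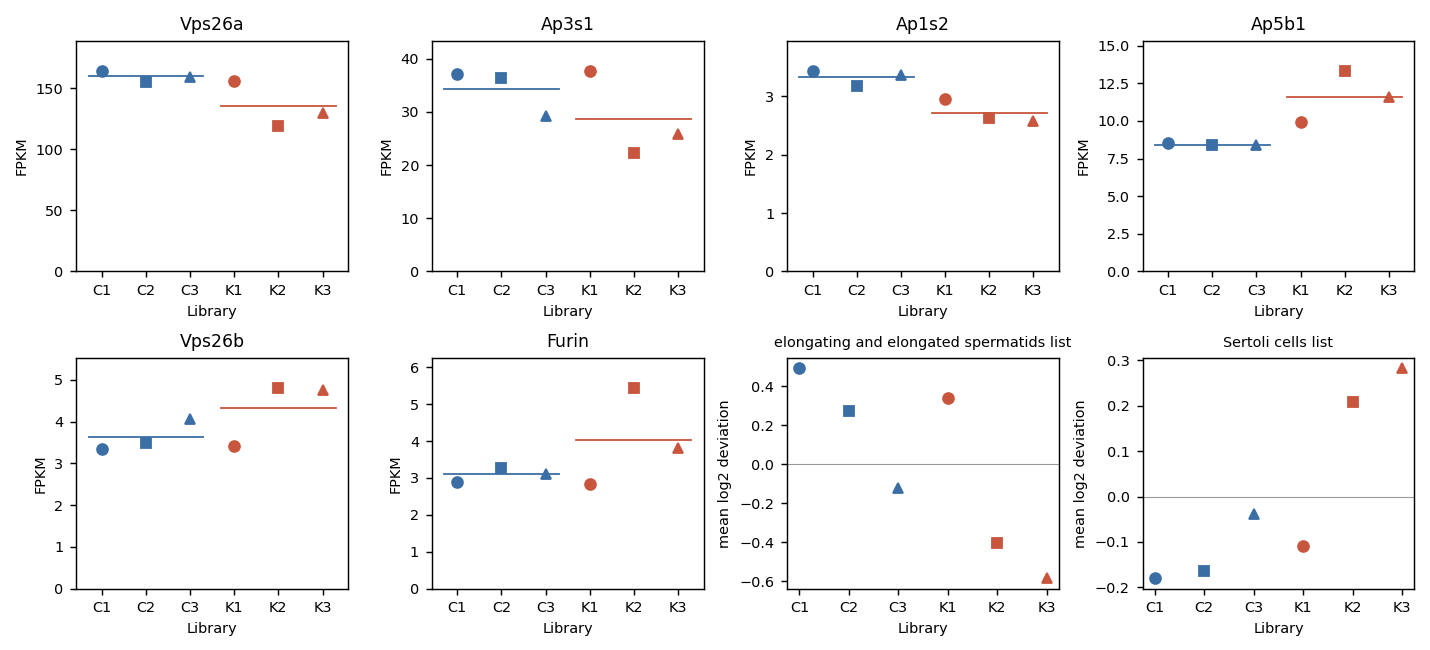
FPKM of Vps26a, Ap3s1, Ap1s2, Ap5b1, Vps26b and Furin in each library (C1 to C3 controls in blue, K1 to K3 labelled knockout in red, lines at the group means, axes from 0), with the mean log2 deviation of the elongated spermatid and Sertoli lists. K1 lies among or next to the controls for Vps26a, Ap3s1, Vps26b, Furin and both lists, while Ap1s2 and Ap5b1 keep the 2 groups apart.

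GARP tethers vesicles from endosomes to the trans-Golgi network. Vps52 was its most abundant transcript, at 22.3, 22.01 and 21.6 FPKM in heterozygote testis, against 19.8, 25.5 and 24.3 FPKM in knockout-labelled testis, where library 1 had the lowest value of the 6 and libraries 2 and 3 the highest. Vps53 had close means, at 6.75 ± 0.197 and 6.75 ± 0.282 FPKM (SD, n = 3 each), with a 95% interval of its log2 difference from -0.20 to 0.20. Vps51 was listed at 0.282, 0.330 and 0.307 FPKM against 0.301, 0.352 and 0.497 FPKM, from 22 to 46 reads a library, and was not tested. Exons of Tm7sf2 and Gm28374 on the same strand cover 18.0% of its gene model, and the authors' handling of reads in shared exons is not stated by the labels or the table, so this low level is uncertain.

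Of the sorting receptors, Sort1 (sortilin, a receptor of the VPS10 family) was the most abundant at 26.05, 26.5 and 24.99 FPKM in heterozygote testis, against 27.1, 26.9 and 19.7 FPKM in knockout-labelled testis. Knockout-labelled library 3 alone stood below the rest. It was also the lowest by the summed Leydig cell markers, at 207 FPKM against 328 to 370 FPKM in the other 5. Hsd3b1 of that list was nevertheless highest there, at 46.1 FPKM. The elongated spermatid sum was lowest there as well, at 7386 FPKM. The part of either list in the Sort1 value was not tested. Sorl1, its relative that carries LDL receptor repeats, had 1.46, 1.46 and 1.65 FPKM against 1.48, 2.18 and 1.67 FPKM, and the ratio of Sort1 to Sorl1 was 17.9, 18.1 and 15.1 in heterozygotes and 18.4, 12.4 and 11.8 in knockout-labelled testis. M6pr, the cation-dependent mannose 6-phosphate receptor, had 11.7, 10.1 and 10.4 FPKM against 10.8, 11.5 and 10.3 FPKM, and its log2 difference was 0.02 with a 95% interval from -0.21 to 0.24. Igf2r, the cation-independent receptor, which also binds IGF2, had 2.78, 3.06 and 3.59 FPKM against 3.25, 3.79 and 3.47 FPKM. M6pr exceeded Igf2r by 4.22, 3.30 and 2.89 times in heterozygotes and 3.32, 3.03 and 2.96 times in knockout-labelled testis, and neither receptor passed (limma adjusted p = 0.977 and 0.868).

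Furin, a protease that cleaves proproteins in the trans-Golgi network, had 2.90, 3.28 and 3.10 FPKM in heterozygote testis, against 2.83, 5.44 and 3.82 FPKM in knockout-labelled testis. Knockout-labelled library 2 had the highest value of Furin and library 1 the lowest of all 6, and the log2 difference of 0.27 (SE 0.19) did not pass (limma adjusted p = 0.868). Tgoln1, the TGN38 protein that cycles between the trans-Golgi network and the cell surface, had 16.7, 13.1 and 17.2 FPKM against 15.8, 17.2 and 14.7 FPKM (log2 difference 0.03, 95% interval -0.26 to 0.32). This marker of the compartment named in the series title thus had close means, 15.7 ± 2.23 and 15.9 ± 1.22 FPKM (SD, n = 3 each).

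**Figure D5:**
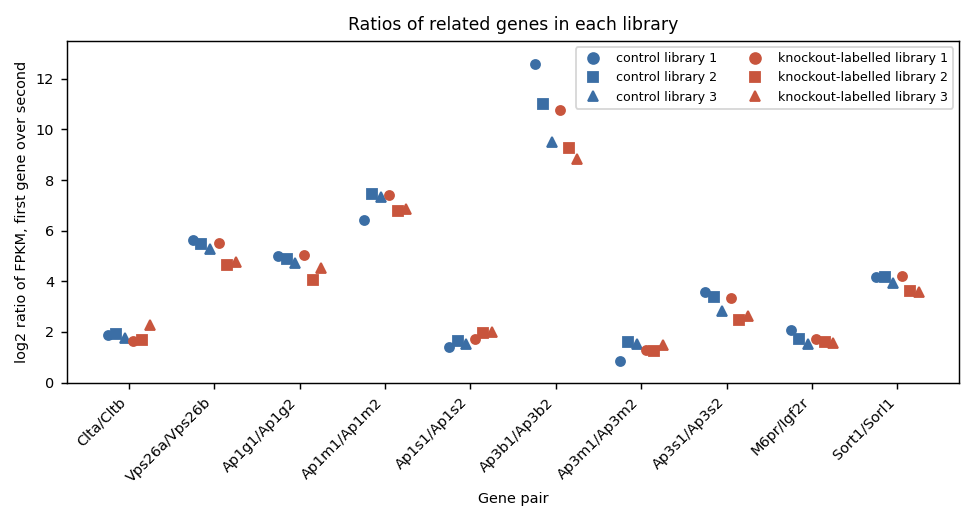
Log2 ratio of FPKM for 10 pairs of related genes in each library, the first named gene over the second, with blue for controls and red for knockout-labelled libraries. Points of Ap1s1/Ap1s2 do not overlap between the groups, and those of the other 9 pairs do. The Ap3b1/Ap3b2 points rest on 1 to 13 reads of Ap3b2.

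The number of these genes with a small p depended on knockout-labelled library 1. Without it, 9 of 39 tested genes had an unadjusted p under 0.05 in limma, 23.1% where all genes gave 18.2%, in place of 1 of 38. They were Ap5b1, Ap5s1, Gga1, Clta, Vps26b and Furin with higher values and Vps26a, Ap3s1 and Ap1s2 with lower ones. None passed after adjustment in that setting either (smallest limma adjusted p = 0.146, for Ap5b1), and the share lay near that of all genes.

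The wider pathway was read from 11 lists of partner genes, of which 96 genes outside the 42 were in the table and 86 were tested. None passed in either direction (limma adjusted p from 0.868 to 0.999), and 0 had an unadjusted p under 0.05. Their median log2 difference was 0.05, with 58 values above 0 and 28 below. The groups did not overlap for 5 of the 86 with higher values, among them Ap2a2, Sorcs2, Pcsk7 and Psap. Nor did they overlap for 2 of the 86 with lower values, Snx5 and Commd1. Among all tested genes the shares were 4.15% higher and 4.41% lower. These small counts are no result about the partners. In the AP-2 complex, the endocytic adaptor of the plasma membrane, 0 of 5 passed. Ap2b1, its highest gene, had 102, 104 and 91.4 FPKM in heterozygote testis, against 102, 98.4 and 81.02 FPKM in knockout-labelled testis, and Ap2a2, an α subunit, had 14.2, 14.2 and 13.9 FPKM against 15.4, 15.8 and 15.9 FPKM, where the groups did not overlap. Of 15 tested clathrin cofactors, Hspa8, the chaperone that uncoats vesicles, was at 54.6 ± 4.75 and 57.03 ± 5.55 FPKM, and Necap2 at 9.01 ± 0.242 and 10.02 ± 1.10 FPKM (SD, n = 3 each, as for the pairs of means below).

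Among 9 retromer-linked genes, Snx3, a sorting nexin that recruits retromer, was at 123 ± 12.5 and 114 ± 3.93 FPKM. In the WASH complex, which builds actin on endosomes, Washc1 was at 7.20 ± 0.766 and 7.60 ± 0.486 FPKM and Fkbp15 at 1.99 ± 0.143 and 2.33 ± 0.335 FPKM. Of 13 tested Commander genes, a retrieval complex related to retromer, Commd3 had 18.5, 16.2 and 14.97 FPKM in heterozygote testis, against 16.95, 10.9 and 12.3 FPKM in knockout-labelled testis, with library 1 among the controls as for Vps26a (log2 difference -0.31, limma adjusted p = 0.868). Vps54 of GARP was at 4.33 ± 0.315 and 4.11 ± 0.0611 FPKM, and Vps50, which replaces it in the related EARP complex, at 2.89 ± 0.284 and 2.40 ± 0.511 FPKM. Sorcs2, the tested partner of the VPS10 family, had 2.06, 2.03 and 2.20 FPKM against 2.42, 2.90 and 2.43 FPKM without overlap of the groups (limma adjusted p = 0.868).

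Of 4 tested proprotein convertases besides Furin, Pcsk4, the germ cell convertase, was far higher than Furin, at 52.3, 54.3 and 42.7 FPKM in heterozygote testis, against 53.8, 51.9 and 57.6 FPKM in knockout-labelled testis. Pcsk7 had 5.62, 5.22 and 4.95 FPKM against 5.67, 6.01 and 7.03 FPKM, also without overlap. Of 17 lysosomal genes, the cargo end of this route, 14 had higher and 3 lower means in knockout-labelled testis, with a median log2 difference of 0.09 and 0 passing, where 9315 of all 19168 tested genes had higher means. The part of the macrophage markers given above in this count was not tested. Lamp1, a membrane protein of lysosomes and 1 of the 3 with a lower mean, was at 184 ± 1.52 and 177 ± 4.94 FPKM. Psap, for the precursor of the saposins, named after its values were seen, had 87.99, 84.05 and 88.3 FPKM against 90.4, 124 and 96.5 FPKM, with knockout-labelled library 2 farthest above the controls. Of 11 genes for ARF proteins and their regulators, Arf1, the GTPase that recruits AP-1 and GGAs, was at 102 ± 6.31 and 111 ± 8.57 FPKM, and Arl1 at 41.4, 37.8 and 40.4 FPKM against 39.3, 28.6 and 31.4 FPKM, again with knockout-labelled libraries 2 and 3 below the other 4.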

How the data were processed

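The 6 testis libraries share 1 deposited table of FPKM by gene. Trizol extraction and a SMARTER mRNA-Seq kit are named per the labels' protocols, and GRCm38 and mm10 stand in the submitters' processing notes. The labels and the table name no aligner, counter, annotation or strand setting (not given in the sources used here). Groups and replicate numbers came from the titles. Multiplying FPKM by gene length showed steps of 1 size in each library, and 100% of values above 0 were whole in such steps (tolerance 0.001 reads), which gave whole reads.

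The 19168 genes whose mean reached 0.5 FPKM entered limma 3.58.1 (R 4.3.3, eBayes with trend, group as the only term) as log2(FPKM + 1), and p was adjusted over all of them. The pseudocount makes fold changes of low genes look smaller. Alternatives were 2 other pseudocounts, 2 filters, 3 normalizations, the replicate number as a block, no trend, limma-voom on the recovered reads (mean of at least 10 reads) and each library left out.

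Named were all 42 genes and, of each partner list, the genes of highest FPKM and of smallest p. The values of 1 partner gene so chosen are not reported here. The members, lists and tests were chosen with earlier results of these data known. Subunit ratios, as of Vps26a to Vps35, were chosen after their values were seen. Of the partner symbols 1 (Cltcl1) was not matched, and Vps35l and Vps26c were matched by Ensembl ID. Exon overlap and shared 31-base words were measured against GENCODE M21, in which 39 of the 42 genes have the table's coordinates.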

Additional observations from a re-analysis of the deposited data

How the results depend on the processing

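With 3 libraries a group, the 95% intervals of the 38 genes had half-widths of 0.19 to 0.58 on the log2(FPKM + 1) scale. Under all 16 alternatives 0 of the 42 genes and 0 partners passed. Over all genes 0 passed except with limma-voom on the recovered reads, which gave 1, with 324 higher and 457 lower at an unadjusted p under 0.05. The median difference was taken over those of the 42 genes tested in each setting, from 31 (mean of at least 2 FPKM) to 42 (no filter). When libraries were left out, it lay between 0.01263 (without knockout-labelled library 2) and 0.08953 (without knockout-labelled library 1, with 39 genes). Otherwise it lay between 0.06 and 0.09. Of 10 pairs of related genes 1 was without overlap, and 1 to 6 were when a library was left out: 6 without knockout-labelled library 1, 2 without library 3, 2 without control library 1 and 3 without control library 3. Groups of fewer libraries separate more readily, and no share over pairs of other genes was worked out.

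Deviations of same-numbered libraries from their group means correlated at 0.29, 0.04 and 0.20 over genes. For each control this was higher than with the other knockout-labelled libraries. Knockout-labelled library 2, however, correlated best with control library 3, at 0.17. Each deviation is taken from the mean of its own group, which ties these values to each other. They therefore cannot decide if the replicate numbers pair the samples. With the replicate number as a block, 0 genes passed, 405 were higher and 1006 lower at an unadjusted p under 0.05, and 2 of the 38 (Ap5b1 and Vps26a) had an unadjusted p under 0.05, with a smallest adjusted p of 0.662.

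Of 601 values of single members under the alternatives, 41 had the opposite sign, in 16 genes, and 22 genes kept their sign throughout. With quantile normalization and with an equal FPKM sum per library, in that order, the log2 difference became 0.033 and 0.0058 for Ap3b1, 0.0040 and 0.011 for Ap3m1, 0.00095 and 0.0023 for Ap4b1, 0.00095 and 0.015 for Vps35, and 0.0028 and 0.021 for Vps53. That of the partner Lamp1 became 0.011 with quantile normalization. With each library left out the values ranged from -0.072 to 0.065 for Ap3b1, -0.066 to 0.022 for Ap3m1, -0.090 to 0.092 for Ap3m2, -0.080 to 0.022 for Ap4b1, -0.069 to 0.061 for Ap4e1, -0.222 to 0.0089 for Ap4s1, -0.029 to 0.048 for Ap5m1, -0.0056 to 0.431 for Ap5s1, -0.0089 to 0.263 for Clta, -0.0060 to 0.155 for Cltb, -0.096 to 0.021 for Cltc, -0.137 to 0.071 for Vps35, -0.018 to 0.030 for Vps53, -0.023 to 0.078 for M6pr, -0.158 to 0.063 for Sort1, and -0.089 to 0.094 for Tgoln1. Among partners they ranged from -0.149 to 0.013 for Ap2b1 and from -0.0070 to 0.143 for Hspa8. The cause was not tested.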
